A study of Rattus norvegicus with 16 samples.

Results

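Primary rat hippocampal neuron cultures carrying a lentivirus against PRR7 were compared, across all genes on the array, with cultures carrying a lentivirus that expresses PRR7. The knockdown and the overexpression group were taken from the source labels and held 4 samples each, 8 of the 16 samples of the series. Knockdown cultures received virus made from pTRIP vectors that encode a short hairpin RNA (shRNA), for which a single target sequence in the PRR7 coding region is given. Overexpression cultures received virus made from a FUGW vector with full-length PRR7. All cultures came from Sprague-Dawley embryos of embryonic day 18 to 19 and of either sex, and no stimulus is named for any group. Nontargeting cultures, which received virus with an shRNA of no target, and cultures that were not transduced, 4 samples each, are used here only as reference levels. The study design calls the samples of a group biological replicates. The labels do not say which promoter drives the hairpin or the PRR7 insert, nor which share of the cells was transduced.

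PRR7 is a small transmembrane adaptor protein found at the postsynaptic membrane of excitatory synapses, where it is linked to NMDA receptors, and it was also studied in lymphocytes. The title of the series places it upstream of c-Jun, a subunit of the AP-1 transcription factor that neurons raise during stress and before some forms of cell death, and whose protein is removed through ubiquitination. An array reads transcripts, so the protein level of c-Jun and its ubiquitination were not measured here.

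The hairpin's target is shown because a stretch of it recurs in the probes of genes that were lower in the knockdown. It is written 5′ to 3′ as the sense strand, with bases 12 to 18 in capitals. A guide strand that pairs with the whole target would pair with these capitals through its bases 2 to 8, the seed, which is the stretch through which small RNAs can also lower transcripts that they match only in part.
shRNA target: cggaatcggacATGTCTAa

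RNA of each sample was labelled with Cy3 or Cy5 and read on Agilent rat arrays, 2 samples of the same group per array. In the knockdown samples 54.6% to 70.5% of the 41012 transcript probes were well above background, in the overexpression samples 54.3% to 69.5%, and no probe was saturated. Within a group the samples correlated at 0.99 to 0.998 over genes in knockdown and at 0.985 to 0.995 in overexpression. No probe was annotated to Prr7 (0 of 41012) and none held the hairpin's target, so neither the knockdown nor the overexpression could be checked on its own transcript. Neuronal markers were high in both groups: the mean log2 signal over 17 of them lay between 13.39 and 13.53 in knockdown and between 13.49 and 13.57 in overexpression. Knockdown arrays shared a slide with nontargeting arrays, and overexpression arrays shared the other slide with those of not transduced cultures, so that slide and group cannot be told apart in the direct comparison. Over 10 RNAs added to the samples, read in each dye, knockdown minus overexpression was -0.31 to 0.18 (log2, median 0), knockdown minus nontargeting -0.6 to 0.24 (median -0.12) and nontargeting minus not transduced -0.29 to 0.56 (median 0.04), while samples of 1 group and dye differed by up to 0.9. Values below are normalised log2 signals, and a difference is knockdown minus overexpression in log2 units with its standard error (SE), so that 1 is a 2-fold difference. In bulk RNA a lower signal can come from fewer cells of a type or from less RNA per cell, which cannot be told apart.

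Knockdown and overexpression cultures differed in 2397 of 22907 genes (10.5%; limma with Benjamini-Hochberg adjustment over all genes, threshold 0.05). Of these, 1321 (5.77% of all genes) were higher in the knockdown, called risen below, and 1076 (4.7%) were lower, called fallen. The difference was at least 2-fold in 381 genes (1.66%), 191 risen and 190 fallen. In 2376 of the 2397 genes every knockdown value lay on the same side of every overexpression value, against 36.3% of all genes, and in 2394 the sign was the same in both dyes. The median difference over all genes was 0.01 and its SD across genes 0.374. A fit in which each array counted as 1 value called 1054 genes. Of 141 called genes that are named below, 13 lost it in 12 to 17 of 22 to 24 other settings: Diablo, Mbp, Dync1li2, Cdc6, Asns, Npy, Gabra5, Idi1, Hmgcs1, Nr4a1, Ung, Psat1 and Mafg. Leaving out either array of a group gave 1068 (knockdown samples 1 and 2), 1177 (knockdown 3 and 4), 1051 (overexpression 1 and 2) or 1186 (overexpression 3 and 4). The values the authors deposited, which were aligned on the median of each sample, put the median gene 0.36 higher in the knockdown and called 5727 genes, 92.7% of them risen, against 55.1% risen with the normalised values.

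The knockdown stood apart from the other samples more often than the overexpression did. Against the not transduced cultures of its own slide the overexpression differed in 1 gene (0.00437%), Eftud2, which encodes a GTPase of the spliceosome. Eftud2 had values in 2 overexpression samples only, both on the same array. An unadjusted limma p under 0.05 was found in 891 of 22907 genes, no more than this threshold passes where no gene differs. Against the nontargeting cultures of its own slide the knockdown differed in 4916 genes (21.5%). The SD across genes was 0.189 for the overexpression and 0.454 for the knockdown, each against its own control. Among the 2397 genes the 4 knockdown samples lay outside the range of the 12 other samples in 48.6% (all genes 9.12%), and the 4 overexpression samples in 6.51% (all genes 1.55%). In 46.5% of the 2397 genes neither group lay outside that range. The control groups themselves differed in 5148 genes (22.5%), and the mean of the nontargeting cultures lay nearer to the knockdown than to the overexpression in 49.1% of the 2397 genes (all genes 52.1%), that of the not transduced cultures in 6.93% (all genes 30.2%). As each slide holds 1 of the groups compared and a control, the difference relative to the control on the same slide, (knockdown minus nontargeting) minus (overexpression minus not transduced), is given below as the slide-referenced difference. It carries an asymmetry of its own, since nontargeting cultures carry virus and not transduced cultures do not. It passed in 2266 genes (9.89%), of which 725 were among the 2397.

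**Figure D1:**
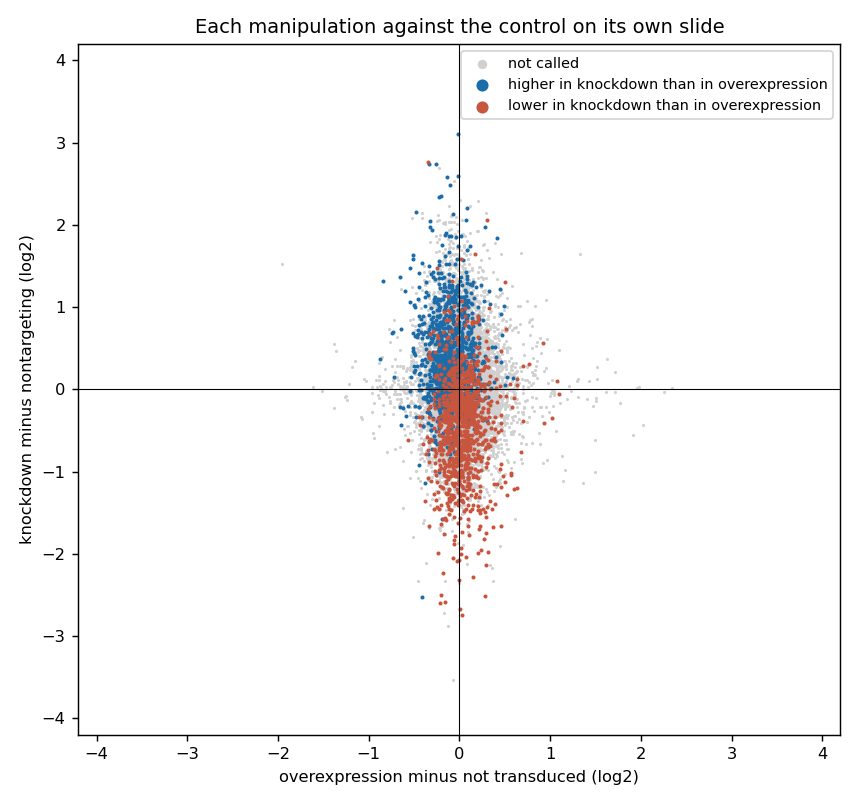
Each point is a gene, placed by overexpression minus not transduced (x axis, log2) and knockdown minus nontargeting (y axis, log2), with genes higher in knockdown than in overexpression in blue, lower ones in red and the rest in grey. The cloud is taller than wide (SD 0.454 on the y axis and 0.189 on the x axis), and some coloured genes lie near 0 on both axes, where the control groups carried the difference.

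No gene moved in opposite directions by both tests. Of the 2397 genes, 0 passed in knockdown against nontargeting and, the other way, in overexpression against not transduced, the latter of which passed a single gene. Among all 22907 genes, 138 showed this arrangement at an unadjusted limma p under 0.05 in both of these comparisons and in knockdown against overexpression. By position alone, 39 of the 2397 genes had the knockdown and the overexpression samples at opposite ends of all 16 samples (all genes 0.179%), 30 with the knockdown highest and 9 with the knockdown lowest. E2f1, a transcription factor that switches on genes for DNA synthesis, showed the widest gap among those with a symbol. Its values were 13.73, 13.87, 13.91 and 13.8 in knockdown and 11.11, 11.22, 11.27 and 11.21 in overexpression, with control means of 11.67 (nontargeting) and 11.68 (not transduced). The next were Chaf1b, a chromatin assembly subunit (1.86), the potassium channel Kcnh1 (1.45), the adaptor Shc3 (1.31) and Exo1, an exonuclease of mismatch repair (1.25). At the low end lay Chst1, a keratan sulfate sulfotransferase (-1.29), and Kctd4 (-1.02). Chst1 had knockdown values of 9.34, 8.97, 9.33 and 9.09 and overexpression values of 10.31, 10.74, 10.49 and 10.37, with control means of 9.49 and 10.01. For Chst1 the slide-referenced difference did not pass (-0.77, adjusted p = 0.123), and for E2f1 it did (2.63, adjusted p = 1.36e-06).

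Of the 12 largest rises among genes with a symbol whose groups did not overlap, 4 belonged to the replication list described below. Another 3 belonged to that of G1/S control. The 2 from the list of chromatin factors were Chaf1b and Zcwpw1. These lists, like all others below, were chosen with earlier results of these data known. Zcwpw1, a reader of histone methylation best known from meiosis (probe at chr12:19884537-19884596, rn4), had signals of 11.99, 11.92, 12.05 and 11.87 in knockdown and 8.74, 8.66, 8.52 and 8.73 in overexpression. All 4 knockdown samples lay above all 12 others, although the nontargeting mean of 10.53 was also above the 8.59 of not transduced cultures. The difference was 3.30 ± 0.15 (9.82-fold, limma adjusted p = 1.11e-08) and the slide-referenced difference 1.36. Timeless, part of the complex that protects replication forks, stood at 11.44, 11.49, 10.96 and 10.98 against 8.59, 8.65, 8.34 and 8.55 (2.69 ± 0.15, adjusted p = 1.14e-07). The knockdown values of Timeless fell into pairs by array, and each of them lay above every other sample. E2f1 (chr3:145032617-145032676, rn4) rose by 2.62 ± 0.12 (6.17-fold, adjusted p = 1.11e-08), but its second probe rose by only 0.76. The others were Tcf19 (2.30), a factor of the G1/S transition, Ccne1 (2.22; no value in knockdown sample 4), cyclin E1, Mcm6 (2.12), the surface proteoglycan Sdc1 (2.07), the potassium channel interacting protein Kcnip4 (2.06), Mcm3 (2.06), the replication licensing factor Cdt1 (2.01) and Chaf1b (1.86; no value in knockdown sample 3). The kinase Stk25 (2.44 ± 0.63, adjusted p = 0.0224) also belongs here, but its overexpression values spread from 7.91 to 10.11, its nontargeting mean (11.32) lay within the knockdown range of 11.19 to 11.51, and the call was lost under both scalings of the scanner's processed signal (adjusted p = 0.0509 and 0.0547). The slide-referenced differences of Stk25 (0.21) and Kcnip4 (0.67) did not pass. Second probes of Zcwpw1 (1.94), Ccne1 (1.52) and Mcm3 (0.88) were called as well, with smaller rises than the tested probes.

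The largest falls were of a mixed kind. Atp6v0d1, a subunit of the vacuolar proton pump that acidifies lysosomes and synaptic vesicles (chr19:35342854-35343006, rn4), had signals of 12.15, 11.97, 12.3 and 12.16 in knockdown and 14.47, 14.47, 14.71 and 14.77 in overexpression. Both control means lay at the overexpression level (14.81 and 14.59), and the difference was -2.46 ± 0.12 (5.49-fold lower, limma adjusted p = 6.61e-07). Calb2, the calcium buffer calretinin, had 11.92, 11.86, 11.68 and 11.45 against 14.03, 12.95, 13.8 and 13.44 (-1.83 ± 0.23, adjusted p = 0.000167). Its overexpression values varied by over 2-fold but stayed above the knockdown, as did the controls (means 13.39 and 13.19). Ermp1, an endoplasmic reticulum metalloprotease (-2.43), Rab9b, a GTPase of late endosomes (-2.09), and Marchf8, a membrane-bound ubiquitin ligase (-1.99), were likewise lower than all 12 other samples. A second probe of Ermp1 stood at 0.05, and that of Marchf8 fell by 0.60 on the log2 scale. Mdh2, malate dehydrogenase of mitochondria (-1.91; values in only 2 overexpression samples), the class I antigen RT1-CE5 (-1.83; another probe -0.24, not called), the thioredoxin-like Txndc17 (-1.79) and the matrix metalloprotease Mmp14 (-1.73 ± 0.41, adjusted p = 0.0146) followed. Igfbp5, a binding protein of insulin-like growth factors, fell as well (-1.98), but its nontargeting mean (9.11) lay below the knockdown values of 9.46 to 10.15, and its slide-referenced difference was 0.22. Ubxn2a fell too (-1.73; another probe -0.50, not called), but its nontargeting mean (9.04) lay within the knockdown range of 9.01 to 9.32, and its slide-referenced difference was 0.19. For Mmp14 the slide-referenced difference was -1.24 with an adjusted p of 0.214.

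**Figure D2:**
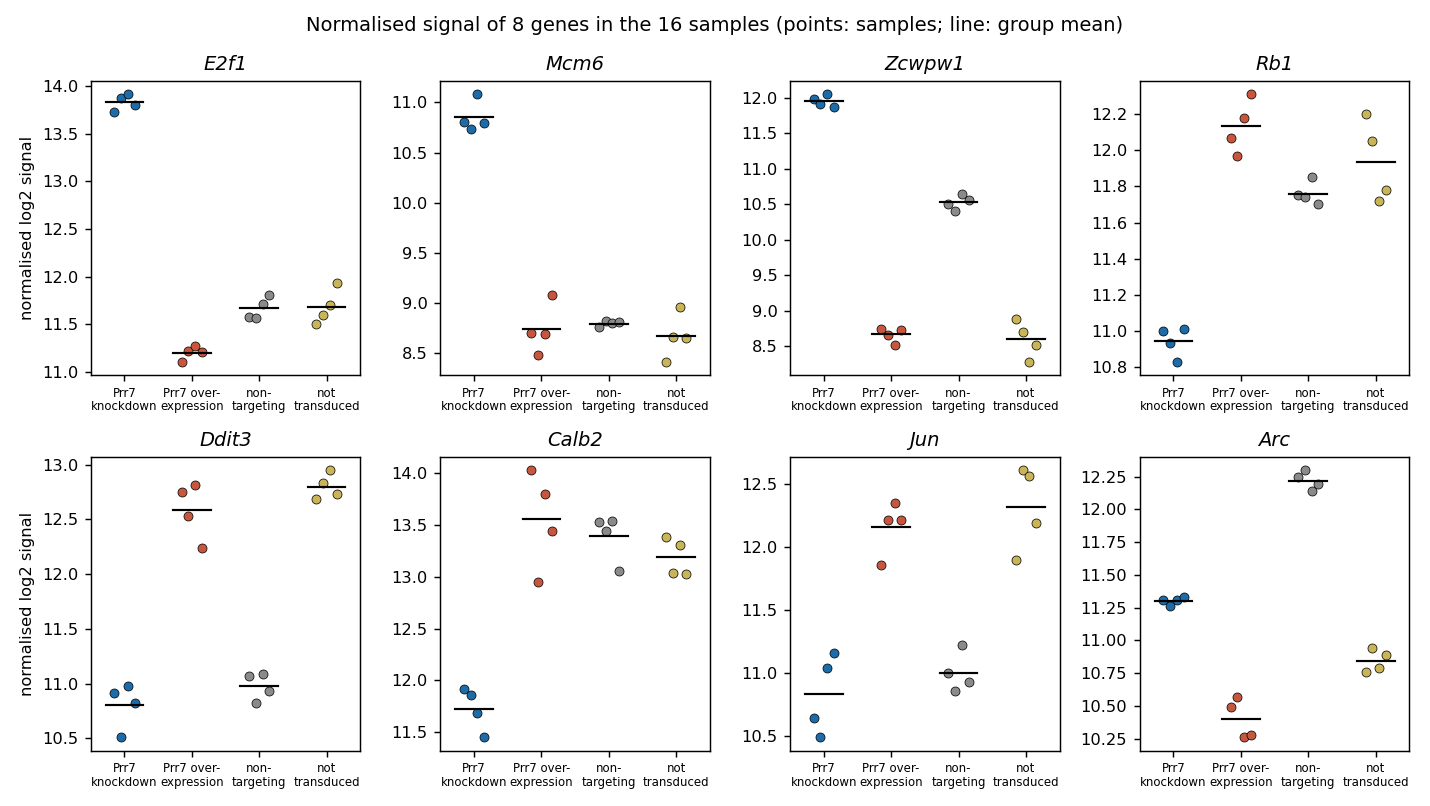
Normalised log2 signal (y axis, each panel with its own range) of 8 genes in the 16 samples, with a point per sample and a line at each group's mean. For E2f1, Mcm6, Zcwpw1, Rb1 and Calb2 the knockdown stands apart from the other 3 groups; for Ddit3 and Jun the nontargeting cultures lie with the knockdown (means 10.98 and 11), and for Arc they lie above it (12.22).

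Genes of DNA replication were higher in the knockdown. Before a cell copies its DNA, the origin recognition complex with Cdc6 and Cdt1 loads the MCM helicase, which Cdc45 and the GINS complex then activate for the polymerases. Of 39 measured genes of licensing, helicase and fork, 21 rose and 0 fell, and the list's median was 0.58 (all genes 0.01, with 5.77% risen and 4.7% fallen). The median moved to between 0.53 and 1.09 under 18 other settings, with 13 to 32 risen and at most 1 fallen. The 13 were found without the array of knockdown samples 3 and 4 and without that of overexpression samples 1 and 2. Relative to the slide's control, a measure outside these settings, 12 rose and 0 fell, with a median of 0.47. Over all genes 1273 of 22907 rose by that measure, with a median of -0.02. In 19 of the 39 genes all 4 knockdown samples lay outside the range of the 12 others. The mean signal over the list was 9.62 to 9.69 in the knockdown samples, 8.89 to 9.06 in overexpression, 9.06 to 9.2 in nontargeting and 8.78 to 8.98 in not transduced cultures. The knockdown samples were thus above all others, and the nontargeting cultures lay next to them.

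Members of each step took part. Mcm6, a helicase subunit (chr13:41052148-41052207, rn4), had 10.81, 10.74, 11.08 and 10.8 in knockdown and 8.7, 8.49, 8.69 and 9.08 in overexpression (2.12 ± 0.19, 4.35-fold, limma adjusted p = 1.09e-05). Its control means, 8.80 and 8.67, lay within the overexpression range. Mcm3 had 11.13, 11.18, 11.45 and 11.15 against 9.17, 9.24, 9.02 and 9.25 (2.06 ± 0.23), with a nontargeting mean of 8.12 that lay below every other group. Mcm2 (1.21), Mcm5 (0.87) and Mcm4 (0.58) rose by less, and other probes of Mcm2 (0.48) and Mcm4 (0.08) did not pass. Among licensing and loading factors Cdt1 (2.01 ± 0.15) and the origin subunit Orc1 (0.65) rose with the helicase activators Cdc45 (1.46 ± 0.10) and Gins2 (0.61). Cdc6, which helps to load the helicase, passed narrowly (0.49, adjusted p = 0.0432). Of the polymerases Pold1 (1.63) and Pole (1.34) rose, as did the primase Prim1 (1.62; 2 knockdown values), the clamp loader Rfc5 (0.72) and the sliding clamp Pcna (0.70). Prim1 was nearly as high in nontargeting cultures (12.55) as in the knockdown (12.77 and 12.68), and its slide-referenced difference (0.27) did not pass. For Cdc45 the slide-referenced difference was 1.21 and for Pole 1.26, both past the test. Those of Mcm4 (0.34), Rfc5 (0.36), Pcna (0.62) and Cdc6 (0.62) did not pass, as for Prim1. All other genes named in this paragraph passed by that measure.

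**Figure D3:**
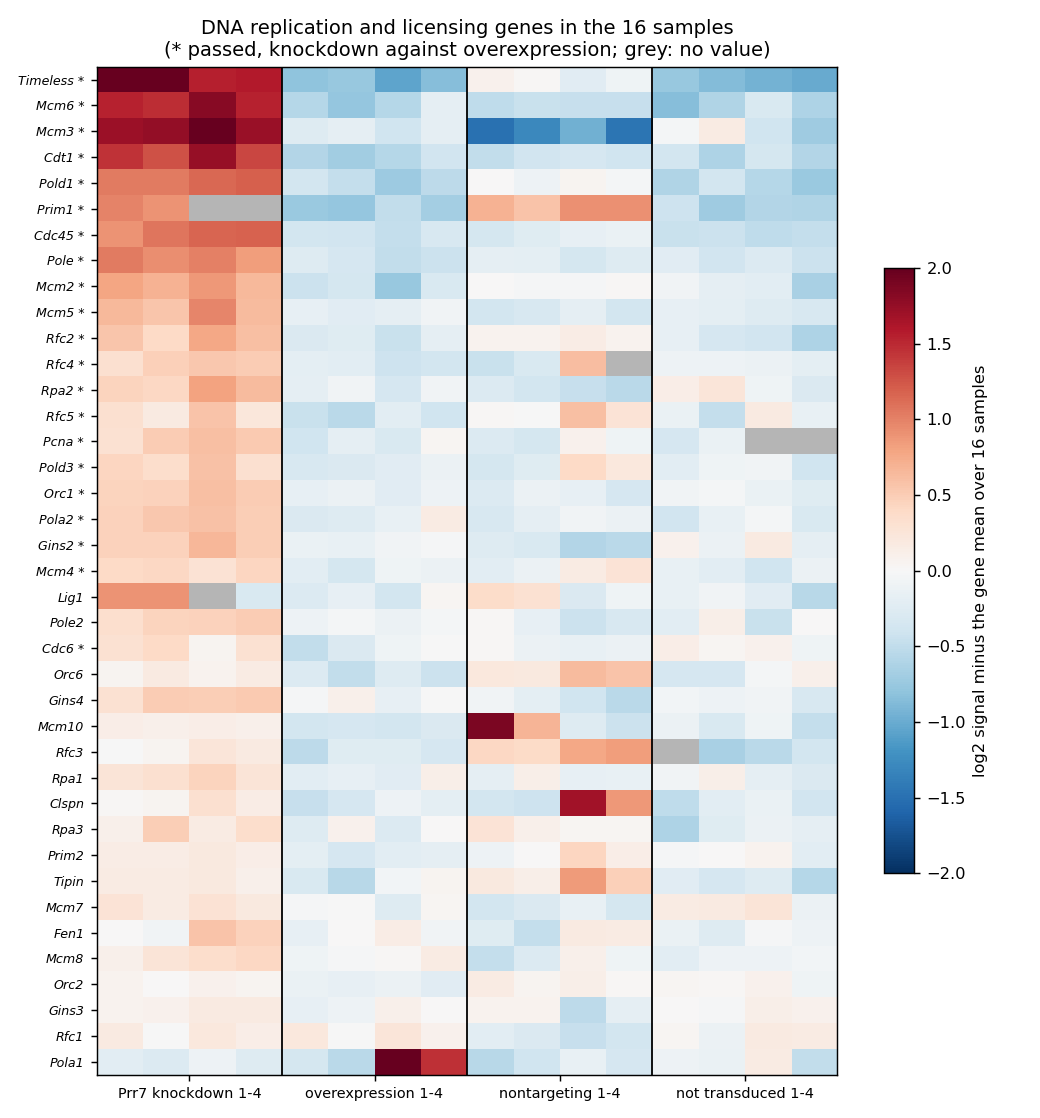
Heat map of the 39 measured replication and licensing genes (rows, sorted by the difference) in the 16 samples (columns), coloured by log2 signal minus the gene's mean over all samples; the scale ends at -2 and 2 and grey marks missing values. Most of the 21 genes with an asterisk are red in the knockdown columns and paler or blue in the others; 5 of them overlap with a control group, Prim1, with 2 missing knockdown values, and Rfc5 among them.

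Promoters of 4 genes are shown because they hold the motifs counted next. They come from RefSeq (GRCr8), run from 250 bases before to 50 bases after the annotated start, and are written 5′ to 3′ on the gene's strand, with the motif matches in capitals. Mcm6 (chr13:42404303-42404602, minus strand), Mcm3 (chr9:30733697-30733996, minus strand) and Cdt1 (chr19:67528999-67529298, plus strand) hold 2 matches each to words bound by E2F factors, overlapping in Mcm6. Trib3 (chr3:161275484-161275783, minus strand) holds 1 match to the amino acid response element bound by ATF4.
Mcm6: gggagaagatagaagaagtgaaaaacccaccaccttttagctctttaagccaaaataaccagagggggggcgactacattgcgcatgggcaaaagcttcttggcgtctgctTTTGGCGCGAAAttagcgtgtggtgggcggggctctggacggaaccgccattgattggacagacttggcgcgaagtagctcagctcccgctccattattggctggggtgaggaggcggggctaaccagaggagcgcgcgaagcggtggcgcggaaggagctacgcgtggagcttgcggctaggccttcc
Mcm3: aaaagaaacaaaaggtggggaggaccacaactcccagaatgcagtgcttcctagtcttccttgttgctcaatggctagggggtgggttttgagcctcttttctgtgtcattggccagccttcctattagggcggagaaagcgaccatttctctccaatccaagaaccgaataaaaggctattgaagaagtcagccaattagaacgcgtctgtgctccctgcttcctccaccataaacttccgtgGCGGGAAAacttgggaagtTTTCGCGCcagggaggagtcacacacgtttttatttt
Cdt1: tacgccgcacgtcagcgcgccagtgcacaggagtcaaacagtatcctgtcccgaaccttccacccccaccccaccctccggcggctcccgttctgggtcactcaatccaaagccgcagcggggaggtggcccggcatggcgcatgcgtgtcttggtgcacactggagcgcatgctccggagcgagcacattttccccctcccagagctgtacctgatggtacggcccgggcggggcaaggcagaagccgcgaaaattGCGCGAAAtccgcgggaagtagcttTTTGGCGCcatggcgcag
Trib3: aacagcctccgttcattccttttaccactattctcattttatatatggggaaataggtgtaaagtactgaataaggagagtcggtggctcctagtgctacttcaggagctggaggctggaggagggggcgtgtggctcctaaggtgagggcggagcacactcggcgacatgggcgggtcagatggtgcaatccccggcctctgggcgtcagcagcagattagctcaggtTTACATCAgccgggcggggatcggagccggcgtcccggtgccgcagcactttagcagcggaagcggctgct

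The words TTTGGCGC, TTTCCCGC, TTTGCCGC and TTTCGCGC were searched on both strands as E2F words. At least 1 of them lay in 2.28% of the 24206 promoters with a unique symbol, and in 3.86% of the 9615 that belong to tested genes. Among the promoters of risen genes the share was 7.96% (51 of 641), among those risen at least 2-fold 13.8% (12 of 87), and among fallen genes 3.1%. Among genes fallen at least 2-fold it was 6.76% (5 of 74). In the measured replication list it was 52.9% (18 of 34), about the same in its risen members (9 of 18, 50%), so the share did not set risen from other members. DNA repair genes held a word in 5 of 13 promoters and mitotic genes in 1 of 20. Among other risen genes named above, the windows of Timeless and Tcf19 held 1 match each and those of Cdc45 and Ccne1 held 0. A match is a description of the letters, with no measurement of E2F binding.

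The genes that feed and steer the S phase went along with replication. Of 10 measured genes of deoxynucleotide supply 6 rose and 0 fell (median 0.49), among them Dut, which clears dUTP (12.64, 12.89, 13.13 and 13.07 against 11.23, 11.13, 11.33 and 11.43; 1.65 ± 0.19, limma adjusted p = 6.33e-05), thymidylate synthase Tyms (0.98) and Shmt1 (0.57). Rrm2, the regulated subunit of ribonucleotide reductase, stood at -0.01. Without any of 3 arrays (knockdown 3 and 4, overexpression 1 and 2, overexpression 3 and 4) 3 of these genes passed. In G1/S control 5 of 23 rose and 2 fell (median 0.31). The risen genes were E2f1, Tcf19, Ccne1, cyclin E2 (Ccne2, 1.05 ± 0.17) and cyclin D1 (Ccnd1, 1.43 ± 0.28). Cyclin D2 (Ccnd2) fell (-0.98), with a slide-referenced difference of 0.25. Rb1, the pocket protein that holds E2F factors in check, had 11, 10.93, 10.83 and 11.01 in knockdown and 12.07, 11.97, 12.18 and 12.31 in overexpression. All knockdown values lay below all 12 other samples (control means 11.76 and 11.94), the difference was -1.19 ± 0.14 (adjusted p = 7.52e-05), the slide-referenced difference was -1.01, and a second probe fell too (-0.64, adjusted p = 0.0295).

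DNA repair genes rose in 8 of 17 measured members, with 0 fallen and a median of 0.38. Exo1 had 9.48, 9.64, 9.71 and 9.63 against 8.44, 8.38, 8.36 and 8.27 (1.25 ± 0.10, limma adjusted p = 2.77e-06), and the checkpoint kinase Chek1 (0.83) and the crosslink repair subunit Fanca (1.47) followed. The uracil glycosylase Ung passed (1.32 ± 0.39, adjusted p = 0.0423) with knockdown values that ran from 8.67 to 10.96. Without the array of knockdown samples 1 and 2, or that of overexpression samples 3 and 4, 5 of the repair genes passed. In the list of chromatin factors 5 of 12 measured members rose and 0 fell (median 0.43). Both chromatin assembly subunits rose, Chaf1b and Chaf1a (1.12), as did the remodeller Hells (1.52, another probe -0.31, not called). The others were the histone mRNA binding protein Slbp (0.82) and Zcwpw1. This list, like all the others, was chosen with earlier results known. As Zcwpw1 is best known from meiosis, its count here is no separate result.

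Genes of mitosis did not share the pattern to the same extent. Of 24 measured members 2 rose and 0 fell, and the median was 0.03, close to the 0.01 of all genes. The 2 were Mad2l1, of the spindle checkpoint (0.91), and cyclin A2 (Ccna2, 1.09 ± 0.24; another probe 0.56, not called). Cdk1, the mitotic kinase, had 10.37, 10.79, 11.16 and 10.8 in knockdown and 9.68, 10.08, 9.86 and 10.3 in overexpression (0.80 ± 0.36, adjusted p = 0.177). These groups did not overlap but the call was not made, and cyclin B1 (Ccnb1) at -0.36 and Cdc20 at -0.32 did not pass either. The list's median against nontargeting cultures was 0.36, because mitotic genes were lower in nontargeting than in not transduced cultures (median -0.46). Without the array of knockdown samples 3 and 4, 1 of the rises was left, and without that of overexpression samples 1 and 2, 0. The difference between the replication and the mitosis list was not tested.

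Genes of the integrated stress response were lower in the knockdown than in overexpression. In this response, kinases that sense amino acid shortage or misfolded protein phosphorylate a translation initiation factor, and the transcription factor ATF4 then raises genes for amino acid supply and, with Ddit3 (CHOP), for cell death. Of 23 measured members 0 rose and 10 fell, with a median of -0.72 and a range of -0.85 to -0.40 under 18 other settings; 5 fell without the array of overexpression samples 1 and 2. Ddit3 (chr7:67251675-67252036, rn4) had 10.91, 10.51, 10.98 and 10.82 in knockdown and 12.75, 12.53, 12.81 and 12.24 in overexpression (-1.78 ± 0.16, 3.43-fold lower, limma adjusted p = 8.34e-06). The nontargeting cultures had the knockdown's level of Ddit3 (mean 10.98) and the not transduced cultures that of overexpression (12.80), so the slide-referenced difference was 0.05. Trib3, a pseudokinase induced by ATF4 and CHOP, had 8.91, 8.85, 9.24 and 9.38 against 10.62, 10.92, 10.95 and 10.78 (-1.72 ± 0.18), with the knockdown below all 12 others. Its slide-referenced difference of -0.51 did not pass. The amino acid transporters Slc7a3 (-1.49) and Slc3a2 (-0.94), the phosphatase subunit Ppp1r15a, which ends the response (-1.08), the kinase Eif2ak3 (-1.19), Atf3 (-1.64 ± 0.28) and Atf5 (-1.40; 2 knockdown values) fell too. Slc7a3 (-1.11) and Ppp1r15a (-1.18) passed relative to the control of their slide as well. Slc3a2 (-0.50) and Atf3 (-0.09) did not, and Eif2ak3 (0.27) and Atf5 (0.21) had the other sign. The nontargeting mean of Atf3 (10.57) was at its knockdown level (mean 10.51). Atf4 itself, whose control is mainly through translation, stood at -0.24 (adjusted p = 0.27). For the whole list the median was -0.10 against nontargeting cultures and -0.42 between the controls. Relative to the slide's control, a measure outside the 18 settings, 2 members fell and 1 rose (median -0.09, all genes 4.33% fallen).

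Enzymes and synthetases that ATF4 controls showed a like picture. Of 24 measured genes for serine, asparagine and one-carbon metabolism and aminoacyl-tRNA synthesis 0 rose and 9 fell, and the median was -0.40. Shmt2, mitochondrial serine hydroxymethyltransferase, had 11.51, 11.31, 11.33 and 11.23 in knockdown and 13.02, 13.28 and 12.46 in the 3 overexpression samples with a value (-1.51 ± 0.22, limma adjusted p = 0.000641). The synthetases for alanine (Aars1, -0.70) and threonine (Tars1, -0.99), the formate-producing Aldh1l2 (-1.10), the serine synthesis enzyme Psat1 (-0.61) and asparagine synthetase Asns (-0.49) fell. Relative to the slide's control Aars1 passed (-0.73) while Shmt2 (-0.43), Tars1 (-0.50) and Asns (-0.12) did not. In the whole list 2 genes fell and 0 rose by that measure (median -0.18, all genes 4.33% fallen). Leaving out any array of a group left 3 or 4 of the 9 calls. The element TGATGNAA, searched on both strands, lay in 2.43% of the promoters of tested genes, in 40.9% (9 of 22) of this list and in 4 of 8 fallen members, and in 27.8% (5 of 18) of the stress response list, with 1 of 7 of its fallen members. The windows of Ddit3 and Asns held 0 matches.

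Chaperones and sensors of the endoplasmic reticulum fell in 7 of 24 measured members, with 0 risen. Their median was -0.27, but it was 0.10 with the deposited values, whose median gene stood at 0.36, and 1 to 3 members passed without an array of a group. The sensor Atf6 had 10.17, 10.02, 9.57 and 9.67 against 10.63, 10.87, 10.63 and 10.66 (-0.84 ± 0.15, limma adjusted p = 0.00214). The chaperones Hspa5 (-0.80; 3 overexpression values) and Hsp90b1 (-0.57) and the degradation adaptor Sel1l (-0.56) fell by less than 2-fold. None of these 4 passed relative to the slide's control. Over the whole list of 24, however, 4 members fell and 1 rose by that measure (median -0.37, all genes 4.33% fallen). Against nontargeting cultures 7 fell and 1 rose (median -0.39, all genes 11% fallen). Wfs1, an endoplasmic reticulum calcium regulator, was named after its values were seen: it fell (-1.04) and stayed low relative to the slide's control (-1.78).

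Jun, the gene of c-Jun, was lower in the knockdown (probe at chr5:115358764-115358823, rn4). Its signals were 10.64, 10.49, 11.04 and 11.16 in knockdown and 11.86, 12.21, 12.35 and 12.21 in overexpression. The groups did not overlap, and the difference was -1.32 ± 0.27 (2.50-fold lower, limma adjusted p = 0.00605). The nontargeting cultures, at a mean of 11, lay with the knockdown and the not transduced cultures, at 12.32, with the overexpression, and the slide-referenced difference was -0.01 (adjusted p = 0.995). The call was lost without the array of knockdown samples 1 and 2 (adjusted p = 0.0888) and without that of overexpression samples 3 and 4 (0.0705). Jun transcript was therefore lower in both groups on the slide of the knockdown and higher in both groups on the other, where slide and treatment cannot be told apart.

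The AP-1 family did not move as a block. Of 14 measured members 2 rose and 4 fell (median -0.26, which was 0.09 with the deposited values). Besides Jun and Atf3, the fallen ones were Maf (-0.77) and Mafg (-0.55), and the risen ones Atf2 (1.28 ± 0.29) and Batf3 (0.56). Maf was higher relative to the slide's control (0.79), because its nontargeting mean of 7.55 was the lowest of the 4 groups. By that measure the list held 1 risen and 2 fallen members (median -0.09), and Atf3 (-0.09) did not pass. Of the rises 1 was left without the array of overexpression samples 3 and 4 and 0 without any of the 3 other arrays, and of the falls 2 were left without that of knockdown samples 1 and 2. Fos had 8.88, 8.7, 9.32 and 9.2 against 9.45, 9.66, 9.55 and 9.9 (-0.62 ± 0.30, adjusted p = 0.208), far below its nontargeting mean of 12.56.

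Of 19 measured genes known as targets of AP-1 or c-Jun, 5 fell and 2 rose, with a median of -0.36; without the array of knockdown samples 1 and 2, 3 fell, and without that of overexpression samples 3 and 4, 2. With the deposited values 5 rose and 5 fell, with a median of -0.03. Hrk, a BH3-only protein that promotes death of neurons and is induced through c-Jun, had 11.06, 11.03, 11.46 and 11.68 in knockdown and 12.66, 13.1, 12.82 and 12.94 in overexpression. All its knockdown values lay below all 12 others (control means 12.27 and 12.82), the difference was -1.57 ± 0.16 (2.98-fold lower, limma adjusted p = 3.54e-05), and the slide-referenced difference of -1.02 passed. A second probe of Hrk fell by 1.58 on the log2 scale. The phosphatase Dusp1 (-0.80) and the integrin Itga7 (-0.93; another probe -0.31, not called) also fell below all 12 other samples, while Ccnd1 and Ccna2 rose. In the JNK cascade and its ubiquitin ligases 2 of 23 rose and 1 fell, near the background: the kinase Mapk9 (JNK2, 0.89; other probes 0.85, called, and 0.17, not called), Map3k5 (0.66) and the scaffold Mapk8ip3 (-0.85). Across Bcl2 family, caspases and p53 targets 4 of 27 rose and 3 fell, with a median of 0.01 that was -0.04 without the array of knockdown samples 1 and 2 and -0.02 without knockdown sample 1. Bak1, a pore-forming Bcl2 protein, had 11.88, 11.69, 11.83 and 11.69 against 12.61, 12.53, 12.2 and 12.29 and fell (-0.63 ± 0.14, adjusted p = 0.00844), with the knockdown below all 12 others. Diablo, a mitochondrial protein that relieves caspase inhibition, passed narrowly in the other direction (0.36, adjusted p = 0.0433). Without any 1 sample of the 8, 1 or 2 of the 4 rises were left.

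Genes induced by neuronal activity lay, as a list, near the overexpression level in the knockdown. Of 29 measured members 8 rose and 2 fell against overexpression, yet the median was 0.03 (-0.07 without the array of knockdown samples 3 and 4, -0.02 without overexpression sample 4), and against nontargeting cultures 2 rose and 19 fell (median -0.85). The list's mean signal was 10.12 to 10.33 in knockdown, 10.1 to 10.18 in overexpression, 10.08 to 10.32 in not transduced and 11.07 to 11.27 in nontargeting cultures, which stood apart. Arc, a regulator of synaptic receptor traffic, had 11.31, 11.26, 11.31 and 11.33 in knockdown and 10.49, 10.57, 10.26 and 10.28 in overexpression (0.90 ± 0.10, limma adjusted p = 5.76e-05), with 12.22 in nontargeting and 10.85 in not transduced cultures. The phosphatases Dusp5 (1.05) and Dusp6 (0.99), the transcription factors Egr4 (1.23) and Nr4a1 (0.81) and the secreted Vgf (0.62) rose in the same way. The slide-referenced difference had the other sign for each of them: -0.47 for Arc, -0.75 for Dusp5, -0.21 for Dusp6, -0.78 for Egr4, -2.12 for Nr4a1 and -0.18 for Vgf. Bdnf, a neurotrophin driven by activity, had 9.66, 9.68, 9.74 and 9.75 against 9.55, 9.57, 9.53 and 9.49, too small a gap to pass (0.17, adjusted p = 0.494), and a nontargeting mean of 11.81. Ier2 (-0.98) and Dusp1 (-0.80) fell. Without the array of knockdown samples 3 and 4, 4 of the 8 rises were left, and without that of overexpression samples 1 and 2, 5.

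**Figure D4:**
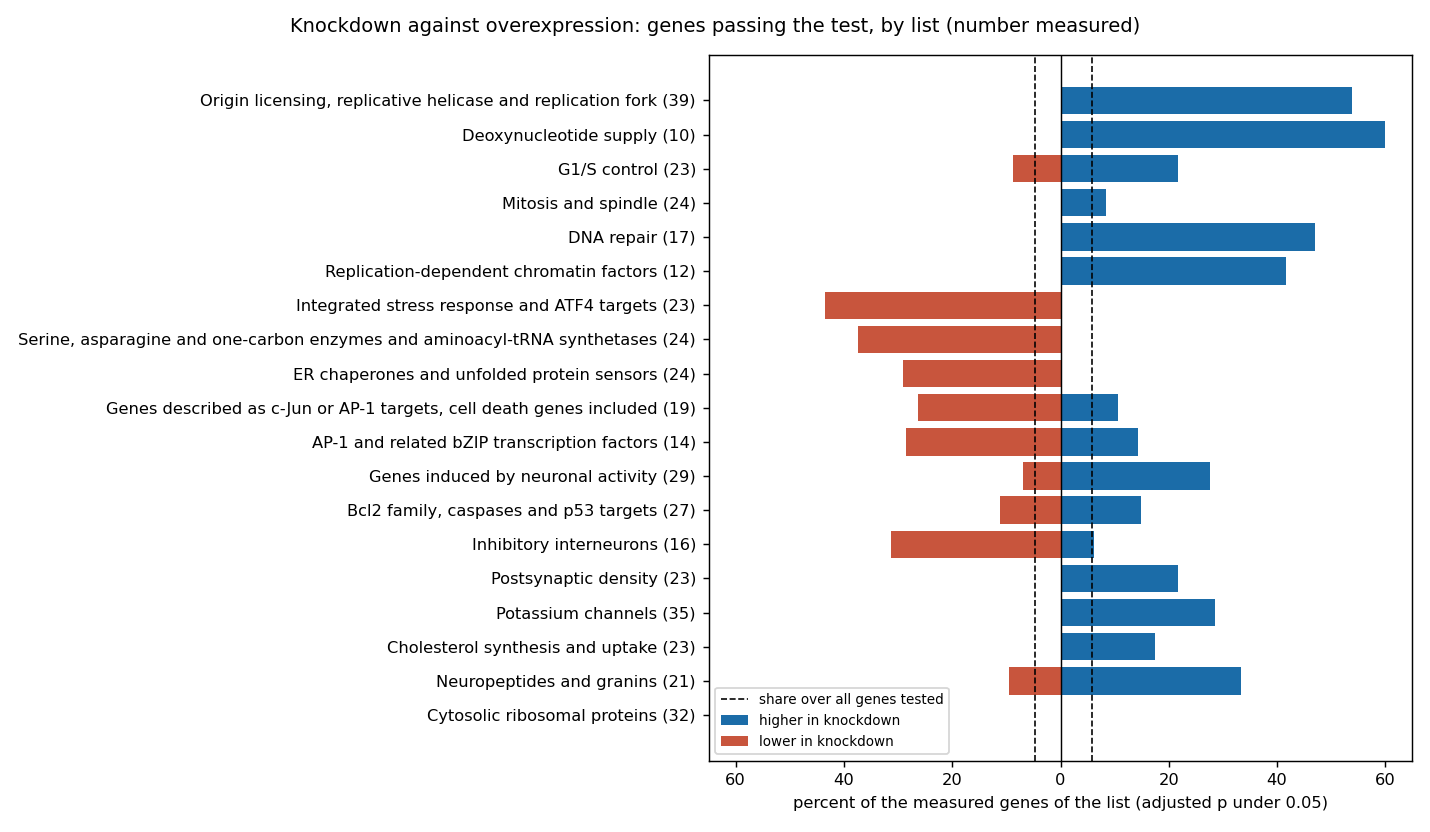
Percent of the measured genes of 19 lists (number measured in brackets) that rose, to the right in blue, or fell, to the left in red, in knockdown against overexpression; dashed lines mark the shares over all genes, 5.77% and 4.7%. Replication (21 of 39), nucleotide supply (6 of 10) and repair (8 of 17) extend to the right and the stress response (10 of 23) to the left; the medians of the endoplasmic reticulum, AP-1 and ribosomal lists turned sign with the deposited values, and those of the activity and apoptosis lists without 1 array.

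Markers of inhibitory interneurons were lower in the knockdown, with 5 of 16 measured fallen, 1 risen and a median of -0.41. Somatostatin (Sst), a peptide of dendrite-targeting interneurons, had 12.66, 12.75, 13.02 and 13.35 in knockdown and 14.05, 14.17, 14.17 and 14.59 in overexpression (-1.30 ± 0.27, limma adjusted p = 0.00696). The groups did not overlap, and the control means were 12.97 (nontargeting) and 14.48 (not transduced). The GABA-producing enzyme Gad2 fell as well (-1.01), and calretinin (Calb2) was described with the largest falls. Against nontargeting cultures the list's median was 0.31, as the nontargeting cultures were the lowest (median -0.97 against not transduced), and the slide-referenced differences of Sst (0.22) and Gad2 (0.68) were above 0. Npy rose (0.57, adjusted p = 0.0433) with overlapping groups, which ran from 12.3 to 12.77 and from 11.6 to 12.37, and the call was lost without any of 6 single samples. Of the 5 falls 2 or 3 were left without the array of knockdown samples 1 and 2, of knockdown samples 3 and 4 or of overexpression samples 3 and 4.

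Among neuropeptides and granins 7 of 21 rose and 2 fell (median 0.23). Prodynorphin (Pdyn), the precursor of dynorphins, had 8.13, 8.32, 8.51 and 8.63 against 7.29, 7.3, 7.11 and 7.4 (1.12 ± 0.16, limma adjusted p = 0.000498). Its probe was well above background in 2 overexpression samples only, and the difference ran from 0.59 to 3.03 under other settings. The processing protease Pcsk2 rose by 1.10 ± 0.18 (another probe 0.47, not called). The tachykinin precursor Tac1 fell (-0.90). Leaving out knockdown sample 2 left 4 of the 7 rises, and leaving out an array 3 or 4, except for that of knockdown samples 3 and 4.

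Potassium channel genes, which set resting potential and spike shape, rose in 10 of 35 measured members, with 0 fallen and a median of 0.24. In each knockdown sample the list's mean signal was 9.56 to 9.63, above the 9.22 to 9.23 of overexpression, the 9.12 to 9.26 of nontargeting and the 9.19 to 9.26 of not transduced cultures. Kcnb2, a delayed rectifier, had 8.78, 8.75, 8.8 and 8.76 against 7.68, 7.72, 7.75 and 7.7 (1.06 ± 0.11, limma adjusted p = 4.44e-05). Kcnh1 had 11.71, 11.97, 11.91 and 11.92 against 10.44, 10.34, 10.41 and 10.52 (1.45 ± 0.18). Kcna1, an axonal channel (1.09, another probe 0.88 with an adjusted p of 0.07), and the background channel Kcnk2 (1.34 ± 0.26) rose too. The largest rise of the list was Kcnip4 (2.06), described above. Kcnv1, a modifier subunit that is not in the list, rose by 1.08. For Kcnk2 the nontargeting mean of 12.34 was at the knockdown level. The slide-referenced differences of Kcnk2 (0.57) and Kcnip4 (0.67) did not pass. Those of Kcnb2 (1.2), Kcnh1 (1.13), Kcna1 (1.61) and, outside the list, Kcnv1 (1.01) did. Without the array of knockdown samples 3 and 4, 6 of the 10 rises were left, and without that of overexpression samples 1 and 2, 5.

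Postsynaptic density genes, the compartment in which PRR7 sits, rose in 5 of 23 measured members with 0 fallen (median 0.39). The scaffold Dlgap3 had 10.15, 9.9, 10.05 and 9.81 against 9.4, 9.37, 9.26 and 9.26 (0.66 ± 0.13, limma adjusted p = 0.00478), Dlgap4 rose by 0.52, the adhesion protein Nlgn1 by 0.72 (another probe 0.09, not called) and the actin regulator Baiap2 by 0.62 (another probe 0.36, not called). Dlg4, the scaffold PSD-95, stood at 0.52 and did not pass (adjusted p = 0.167). For Baiap2 the slide-referenced difference was -0.02 and for Dlgap3 1.23. Of the 5 calls 3 were left without overexpression sample 2 and 0 to 2 without an array of a group. Among NMDA receptor subunits, to which PRR7 is linked, 1 of 7 rose and 1 fell. Grin2a, the subunit that gains during maturation, had 9.15, 9.04, 9.14 and 9.32 against 8.21, 8.27, 8.46 and 8.44 (0.82 ± 0.15, adjusted p = 0.00248; another probe 0.51, also called), and its slide-referenced difference was 1.34. Grin3a, a subunit that reduces calcium entry, fell (-0.53), with a slide-referenced difference of 0.37 that did not pass.

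The other 3 receptor lists held few calls, all of them rises (all genes 5.77% risen). Their medians were 0.14 (AMPA), 0.07 (kainate and metabotropic) and 0.19 (GABA-A). Of AMPA receptor genes 1 of 11 rose and 0 fell, the auxiliary subunit Cacng2 (0.75 ± 0.16). With 1 and 2 calls, the first 2 lists are too small to show a direction. Of kainate and metabotropic receptors 2 of 12 rose and 0 fell, Grm8 (1.07 ± 0.11, limma adjusted p = 1.95e-05) and Grm3 (0.78; another probe 0.57, not called). Of GABA-A receptor genes with gephyrin 4 of 15 rose and 0 fell, among them the extrasynaptic subunits Gabrd (1.29 ± 0.22) and Gabra5 (0.77) and the anchor Gphn (0.80; another probe 0.30, not called). Gabrd had 11.71, 11.73, 11.86 and 11.66 in knockdown and 10.4, 10.3, 10.66 and 10.42 in overexpression, and the knockdown lay above all 12 other samples. The nontargeting mean of Gabra5 (12.58) was above its knockdown mean (12.49). Relative to the slide's control Gabrd passed (1.06), while Gabra5 (0.3) and Gphn (0.62) did not.

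Cholesterol synthesis and uptake showed a median of 0.53, with 4 of 23 measured genes risen and 0 fallen. The sterol carrier Stard4 had 10.44, 10.51, 10.29 and 10.02 against 9.16, 9.24, 9.07 and 8.81 (1.24 ± 0.20, limma adjusted p = 0.000988), and the mevalonate pathway enzymes Mvd (1.11), Idi1 (0.67) and Hmgcs1 (0.65) rose. The list gave 1 or 2 calls without any of 5 single samples and 1 without any array of a group, against 15 with the deposited values. Relative to the slide's control Stard4 passed (1.95), while Mvd (0.79), Idi1 (0.45) and Hmgcs1 (0.29) did not. In the whole list 3 genes rose and 0 fell by that measure (median 0.4).

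The fall of Atp6v0d1 was not shared by the proton pump as a whole, in which 2 of 17 measured subunits fell, 0 rose and the median was -0.02. The second was Atp6v0a1, a membrane subunit (11.7, 11.41, 11.98 and 12 against 13.1, 13.38, 13.14 and 13.39; -1.48 ± 0.18, limma adjusted p = 0.000225). In lysosome and autophagy genes 3 of 26 fell and 0 rose (median -0.19): Map1lc3b, the autophagosome protein LC3 (-1.28 ± 0.20), the lysosomal channel Mcoln1 (-0.87) and Atg5 (-0.76). None of these 3 passed relative to the slide's control (0.67, -0.09 and -0.09). Cytosolic ribosomal proteins, respiratory chain and proteasome held 0 of 32, 1 of 30 and 1 of 30 fallen genes and 0 risen. The ribosomal list had a median of -0.23 with 30 of 32 genes below 0, and its mean signal was 14.92 to 15.02 in knockdown and 15.07 to 15.4 in the 12 other samples. With the deposited values the median was 0.15, below their median gene at 0.36.

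Markers of the other cell types that such cultures hold differed in few members. Of astrocyte markers 1 of 20 rose and 1 fell (median -0.16): the glutamate transporter Slc1a2 (0.75; another probe -0.02, not called) and Fabp7, a fatty acid binding protein of radial glia (-0.97). Gfap, the astrocyte filament protein, was at a mean of 11.28 in knockdown and 12.86 in overexpression (-1.58 ± 0.49, limma adjusted p = 0.0528), which did not pass. The astrocyte list's mean signal was 11.2 to 11.43 in knockdown and 11.44 to 11.89 in overexpression; the part of this difference in the results above was not tested. Of neuronal markers 2 of 17 rose and 1 fell: the filament proteins Nefh (0.87) and Ina (-1.51) and the RNA-binding Elavl4 (0.70; another probe 0.32, not called). Excitatory neuron markers rose in 3 of 16, among them Neurod1 (1.02), and fell in 1. Oligodendrocyte, microglia and vascular or fibroblast markers held at most 1 call in each direction, Mbp (-0.48), Lyz2 (1.17) and Cd68 (-0.56) among them.

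The hairpin's seed word recurred in fallen genes. ATGTCTA, target bases 12 to 18, was looked for in the sense-strand sequence of each tested probe after the results were known. It lay in the probes of 114 genes, of which 29 fell (25.4%; all genes 4.7%, genes without the word 4.59%) and 3 rose (2.63%; all genes 5.77%). The median difference of the 114 was -0.21 against 0.01 for all genes, and 71.1% of them lay below 0 against 49.2%. For 20 of the 29 fallen genes (69%, against 50.6% of all fallen genes) the knockdown lay outside the range of the 12 other samples. Against nontargeting cultures, on the same slide, 28 of the 114 fell (24.6%; all genes 11%) and 5 rose. Other 7-base words of the target came close in that comparison, TGTCTAA with 22% and AATCGGA with 20.8% (5 of 24). In overexpression against not transduced cultures 0 of all 22907 genes fell, so the comparison gives no share, and the median was -0.01 for the 114 and for all genes. Between the controls 17 of the 114 were lower in nontargeting cultures (14.9%; all genes 11%).

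The word's reverse complement, TAGACAT, lay in the probes of 83 genes, of which 4 fell (4.82%). Over the 23 other words of 7 bases from either strand of the target, each in 12 to 152 genes, 0% to 19.5% fell. The highest share belonged to the neighbour TGTCTAA (16 of 82), which overlaps ATGTCTA in 6 bases, and in genes that held TGTCTAA without ATGTCTA 6 of 57 fell (10.5%). For CATGTCT without ATGTCTA it was 7 of 86 (8.14%). Under 24 other settings the share of fallen genes with ATGTCTA was 3.05 to 8.18 times that of all genes, the highest from 2 fallen genes at a minimum fold of 1.5. Without an array 13 to 19 of the genes with the word fell, relative to the slide's control 15, and with the deposited values 11, where the median turned to 0.06. A probe covers a short stretch of a transcript, so that words elsewhere in the transcript were not seen, and whether pairing of the hairpin contributed to any of these differences was not tested.

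**Figure D5:**
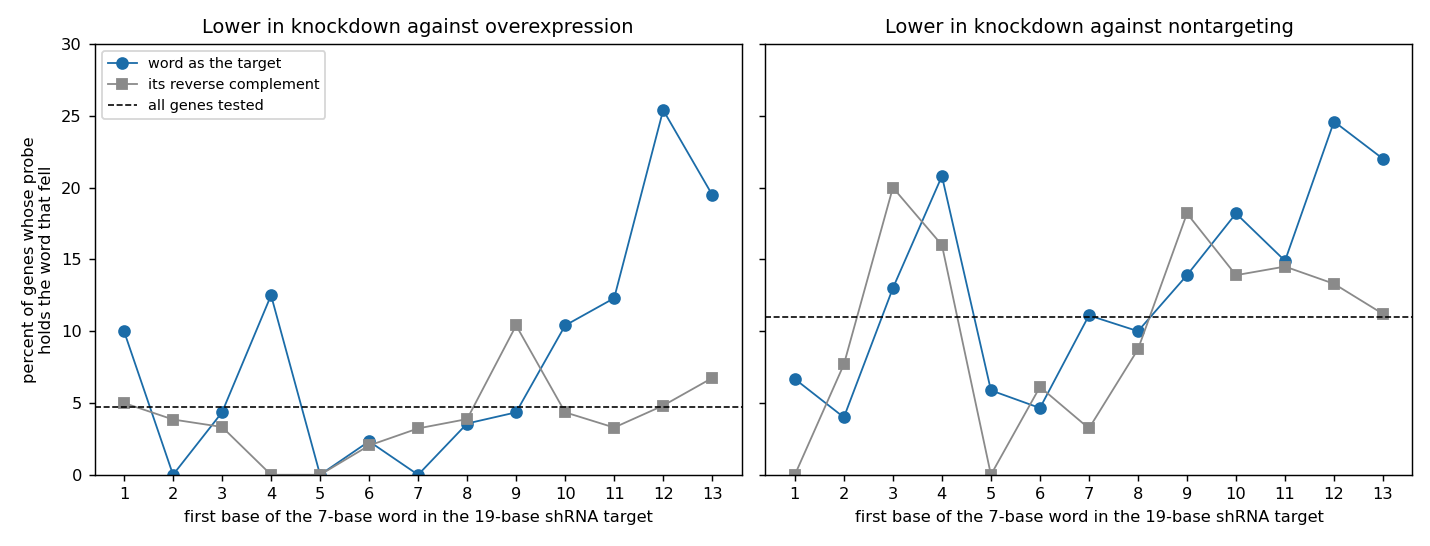
Percent of genes that fell (y axis) among those whose probe holds each 7-base word of the 19-base target, by the word's first base (x axis), in knockdown against overexpression (left) and against nontargeting (right); circles are words as in the target, squares their reverse complements, and the dashed line is the share over all genes. The word that starts at base 12 has the highest share in both panels, 25.4% and 24.6%. In the right panel other words come close to it, with up to 22%.

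The fallen genes with the word had no shared role that the lists held. Rab10, a GTPase of membrane traffic, had 13.54, 13.61, 13.53 and 13.51 in knockdown and 14.85, 14.9, 14.72 and 14.48 in overexpression, with both control means at 14.64 (-1.19 ± 0.13, limma adjusted p = 3.81e-05). Its other probes gave -0.56 and -0.46 and were not called. Dusp3, a phosphatase of MAP kinases, had 11.64, 11.74, 11.9 and 11.93 against 12.91, 12.84, 12.93 and 12.82 (-1.07 ± 0.12), and a second probe fell too (-1.25) while the remaining one stood at -0.05. The knockdown lay below all 12 other samples for both genes. Shmt2 (-1.51), the respiratory complex assembly factor Uqcc5 (-1.2), Hbp1, a transcriptional repressor of the cell cycle (-1.16), the lysosome transport GTPase Arl8b (-0.88; 2 overexpression values), the sulfhydryl oxidase Qsox2 (-0.84) and Wdr26 (-0.51) also belong to the 29, as does the dynein subunit Dync1li2 (-0.83; another probe 0.27, not called). Relative to the slide's control Rab10 (-1.18), Dusp3 (-1.21) and Uqcc5 (-1.69) passed, and Shmt2 (-0.43), Hbp1 (-0.99) and Dync1li2 (-0.23) did not.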

How the data were processed

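RNA of 16 cultures was hybridised to 8 Agilent 2-colour arrays, and each sample was read in its own dye. The intensity values are, per the file headers, mean spot and median background signals of Agilent Feature Extraction 10.7.3.1 (the version is from the submitters' processing notes and the file headers), with no normalisation. The log2 values of the series matrix, as deposited by the authors, are the median signal minus background, centred on each sample's median. A label describing adult brain tissue contradicts the culture protocol and was not used.

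Background was corrected by normexp (offset 50), dyes by loess and arrays by Aquantile in limma 3.58.1 (statmod 1.5.0, R 4.3.3). Outlier spots were set to missing. Probes well above background in at least 4 samples, with at least 12 values and 2 per group, were kept (27294 of 41012), and the brightest probe of each name was tested (22907 genes, 12364 with a symbol). The fit held group and dye, with the array as random block (correlation 0.569). P values are two-sided, adjusted by Benjamini-Hochberg over all genes. Other values of a gene's probes come from a fit of every probe.

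The members and the 43 gene lists were chosen with earlier results of these data known. Named are the 12 largest rises and falls among genes with a symbol and groups that do not overlap, up to 4 members with the smallest p of each list, and Jun; further members and the genes with the seed word were named after their values were seen. Some members of these lists are counted but not reported here by name. Same-numbered samples of both groups correlated at 0.139 to 0.264 after group means were removed, but they share a dye. The fits were tested on simulated data. Alternatives changed the background correction, signal, scaling, filter, probe choice, samples, block and slide reference. Plots used matplotlib 3.10.9.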

Additional observations from a re-analysis of the deposited data

Results flagged for a closer look

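Among 286 sets of 4 values (the knockdown or the overexpression values of the 151 named genes), 13 held a sample whose gap to the nearest of the other 3, as a share of the set's range, was over Dixon's critical value; chance gives about 1 in 20 sets. In knockdown, sample 3 was high for Tcf19 (12.94, others 12.57 to 12.62) and Mcm3 (11.45, others 11.13 to 11.18), and sample 4 was high for Tac1 (9.58, others 9.39 to 9.42). In overexpression, sample 3 was low for Ung (8.2, others 8.33 to 8.35), Kcna1 (12.03, others 12.23 to 12.26) and Kcnk2 (10.83, others 11.31 to 11.34). Sample 4 of overexpression was low for Ppp1r15a (11.38, others 11.68 to 11.73) and Atg5 (10.2, others 10.25 to 10.26) and high for Psat1 (8.04, others 7.67 to 7.68). Overexpression sample 2 was high for Atf6 (10.87, others 10.63 to 10.66) and low for Rrm2 (8.07, others 8.47 to 8.54), and sample 1 was low for Wfs1 (9.97, others 10.12 to 10.14) and high for Uqcc5 (12.22, others 11.95 to 11.96). None of these samples lay within the range of the other group for its gene.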

How the results depend on the processing

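The count of 2397 genes became 5727 with the deposited series matrix values, 4124 in a fit of the 8 knockdown and overexpression samples alone, 1054 with each array as 1 value and 99 when a minimum fold of 1.5 was tested. It was 1068 without the array of knockdown samples 1 and 2, 1177 without that of knockdown samples 3 and 4, 1051 without that of overexpression samples 1 and 2, and 1186 without that of overexpression samples 3 and 4. Without any single sample it was 1880 to 2339, and under the 7 other choices of signal, scaling, filter and probe it was 1984 to 2838. Relative to the control on the same slide it was 2266. Genes that passed in opposite directions on their own slides were 0 under most settings, but 1 with the series matrix (RGD1565886), 4 without the array of overexpression samples 1 and 2 (BP474821, Ceacam9, TC589662 and TC611601) and 3 without that of overexpression samples 3 and 4 (AA924799, FQ235299 and LOC100365679). The cause was not tested for any of these.

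With the replicate number as a block in place of the dye, 3155 genes were called, 2392 of them among the 2397, and the 141 called genes that are named kept their call, while Gfap passed (adjusted p = 0.0349). Each number stands for a single dye, and after the dye was removed as well the same-numbered samples correlated at 0.0346 to 0.22, with 1 of 4 best with its own number, so a pairing beyond the dye was not established.

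Of 141 called genes that are named, 63 kept direction and call relative to the control on the same slide, 60 kept the direction only and 18 had the other sign. The latter were Igfbp5 (0.22), Ddit3 (0.05), Ubxn2a (0.19), Ccnd2 (0.25), Eif2ak3 (0.27), Atf5 (0.21), Maf (0.79), Arc (-0.47), Dusp5 (-0.75), Dusp6 (-0.21), Egr4 (-0.78), Vgf (-0.18), Nr4a1 (-2.12), Sst (0.22), Gad2 (0.68), Baiap2 (-0.02), Grin3a (0.37) and Map1lc3b (0.67). Atf4 (0.19), Bdnf (-1.74), Ccnb1 (0.37), Cdc20 (0.06), Eftud2 (-1.5) and Rrm2 (1.04), which were not called, turned as well. Rrm2, at -0.01, also had the other sign without background correction (0.02), with the processed signal (0.03 and 0.05), with the series matrix (0.41), with the mean of its probes (0.05), without the array of knockdown samples 1 and 2 (0.17) and without that of overexpression samples 3 and 4 (0.1), and it was -0.1 to 0.09 without single samples. With the series matrix Atf4 stood at 0.19 and Cdc20 at 0.06, and the medians of the endoplasmic reticulum list (0.1) and of the AP-1 list (0.09) turned. The median of the activity list was -0.07 without the array of knockdown samples 3 and 4, and that of the apoptosis list -0.04 without that of knockdown samples 1 and 2.

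Each group rests on 2 arrays of 1 slide, which limits the precision and leaves slide and group inseparable. Of the 141 genes, 11 were not well above background in all 8 samples (Mcm5, Mcm4, Orc1, Gins2, Cdc6, Ccne2, Psat1, Batf3, Grm8, Pdyn and Slbp), so that their differences are limited by background.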
